A study of Mus musculus with 2 samples.

Results

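Fragments of 6 noncoding RNAs, Rny1, Rny3, Vaultrc5, Rn7sk, Rmrp and Rpph1, were examined in small RNA libraries of mouse fetal testes. A sequence was taken as a fragment when it was 16 to 48 nt long and lay, without a mismatch and on the sense strand, inside the annotated transcript of one of the 6 genes. This gave 471 distinct sequences among the 1031823 of that length, 290 in the wild-type (WT) library and 264 in the Hsp90α knockout (KO) library, of which 83 were in both. Both libraries were made from whole testes of C57BL/6 mice at embryonic day 16.5, with 20 testes pooled per genotype, so each genotype was represented by 1 library of mixed germ and somatic cells. Hsp90α is a chaperone encoded by Hsp90aa1, and the labels give the KO only as Hsp90-alpha KO, without the allele. Reads were sequenced from one end on a MiSeq after TruSeq small RNA library preparation, and the longest sequences were 48 nt, so only pieces of these RNAs, and not the whole RNAs, were measured.

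All 6 parent RNAs are products of RNA polymerase III. The Y RNAs Rny1 and Rny3 fold into a hairpin whose stem joins the 5′ and 3′ ends, and they are bound by the proteins Ro and La. They are known to break into small fragments in many cells. Vaultrc5 belongs to the vault particle, a large cytoplasmic ribonucleoprotein. Rn7sk is the 7SK RNA, which holds the transcription elongation factor P-TEFb in an inactive complex. Rmrp is the RNA of RNase MRP, an enzyme that cuts the ribosomal RNA precursor, and Rpph1 is the catalytic RNA of RNase P, which removes the 5′ leader of tRNA precursors.

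The fragments that carried most reads came from fixed ends of Rny1, Rny3 and Rmrp. The 2 Y RNA genes lie 6343 bases apart on chromosome 6, and their whole transcripts are printed from 5′ to 3′ to show where the reads came from. Rny1 occupies chr6:47788069-47788180 on the minus strand of GRCm38 and Rny3 occupies chr6:47781624-47781725 on the plus strand. Capitals mark positions 1 to 30 and 84 to 111 of Rny1, the most abundant fragment from each end, and positions 74 to 99 of Rny3, its most abundant fragment.
Rny1: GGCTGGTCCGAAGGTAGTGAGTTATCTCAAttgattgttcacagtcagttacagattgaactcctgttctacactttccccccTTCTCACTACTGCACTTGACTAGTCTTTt
Rny3: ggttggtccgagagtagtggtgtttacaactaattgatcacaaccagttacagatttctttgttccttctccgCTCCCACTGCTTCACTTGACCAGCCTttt

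The leading 3′ fragments of the Y RNAs are printed to show their closely spaced starts and uneven 3′ ends. Capitals mark the part that came from the run of 4 T (U in the RNA) with which both transcripts finish.
Rny1 84 to 111: ttctcactactgcacttgactagtcTTT
Rny1 84 to 110: ttctcactactgcacttgactagtcTT
Rny3 74 to 99: ctcccactgcttcacttgaccagccT
Rny3 75 to 99: tcccactgcttcacttgaccagccT
Rny3 74 to 100: ctcccactgcttcacttgaccagccTT

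Rmrp lies on the minus strand of chromosome 4 at chr4:43492783-43493063 and is annotated there as a lincRNA. Its positions are counted from the first base of the RefSeq transcript, which is 4 bases inside the 281-nt transcript used for matching. The first 60 bases, chr4:43493000-43493059, are printed with positions 1 to 38 in capitals. The 3 most abundant fragments follow, with the bases past position 30 in capitals, because the fragments differed only in how far they reached beyond that position.
Rmrp first 60 bases: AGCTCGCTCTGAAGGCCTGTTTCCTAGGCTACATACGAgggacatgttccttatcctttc
Rmrp 1 to 30: agctcgctctgaaggcctgtttcctaggct
Rmrp 1 to 37: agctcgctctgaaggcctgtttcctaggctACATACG
Rmrp 1 to 38: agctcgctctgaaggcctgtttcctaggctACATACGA

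The most abundant fragment of Rn7sk came from inside the RNA. Rn7sk lies at chr9:78175303-78175633 on the minus strand, and positions 40 to 90, at chr9:78175544-78175594, are printed with that fragment, positions 55 to 76, in capitals.
Rn7sk 40 to 90: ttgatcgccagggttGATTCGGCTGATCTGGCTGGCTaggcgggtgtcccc

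Rpph1 (chr14:50807449-50807767, minus strand) has 319 nt and Vaultrc5 has 143 nt. Each of the 6 transcripts is noncoding, so none of the fragments lies in a coding region or a UTR of its parent gene.

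The 2 libraries held 6409305 reads (WT) and 5589326 reads (KO). Counts were compared relative to reads inside miRNA hairpins, of which WT had 2523084 and KO had 2561491. With 1 library per genotype there was no replicate, no p-value was computed, and each 95% interval covers counting error only. PCR copies are also counted as separate reads. Fewer cells of a type and less RNA per cell cannot be told apart in these whole-testis libraries. Small RNA reads do not check the knockout: sense reads matching Hsp90aa1 numbered 22 in WT and 37 in KO, and those matching its paralog Hsp90ab1 numbered 40 and 46.

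The 6 RNAs together gave 1049 reads in WT and 742 in KO. They made up 0.0164% of WT reads (95% Wilson interval 0.0154 to 0.0174) and 0.0133% of KO reads (0.0124 to 0.0143). Per 1000000 miRNA reads the level was 416 in WT (95% Poisson interval 391 to 442) and 289.7 in KO (269 to 311). Set against miRNA reads, the KO/WT ratio was 0.697, with an exact interval of 0.633 to 0.766. Relative to the reads of other structural RNAs, chosen as another total, the ratio was 1.11 (1.01 to 1.23), and it was 0.943 (0.857 to 1.04) when 1 of those genes, Gm26202, was left out of that total. That total was not matched to the lengths of the fragments. Of its reads, 41.8% in WT and 15.6% in KO were 33 to 48 nt long, against 28.2% and 10.4% for the 6 RNAs. A gene without a read could still have had up to 3 reads, which is 1.19 per 1000000 miRNA reads in WT and 1.17 in KO, but each of the 6 had reads in both libraries.

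Because the parents differ in length, their levels were set side by side as reads per 1000000 miRNA reads per 100 nt of parent. In the WT library Rny1 had 90.2 (interval 79.5 to 102), Rny3 had 88.2 (77.1 to 100.5) and Rmrp had 60.4 (54.7 to 66.5) on this scale. Rn7sk had 9.10 (7.17 to 11.4), Rpph1 had 6.96 (5.26 to 9.04) and Vaultrc5 had 4.43 (2.53 to 7.20). Rny1 and Rny3 did not differ beyond counting error, nor did Rn7sk and Rpph1, or Rpph1 and Vaultrc5, whose intervals overlapped. In the KO library the values per 100 nt were 74.9 for Rny1, 80.4 for Rny3, 27.8 for Rmrp, 5.78 for Rn7sk, 7.34 for Rpph1 and 3.28 for Vaultrc5. The first 3 RNAs again stood above the other 3, with intervals that did not overlap.

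**Figure D1:**
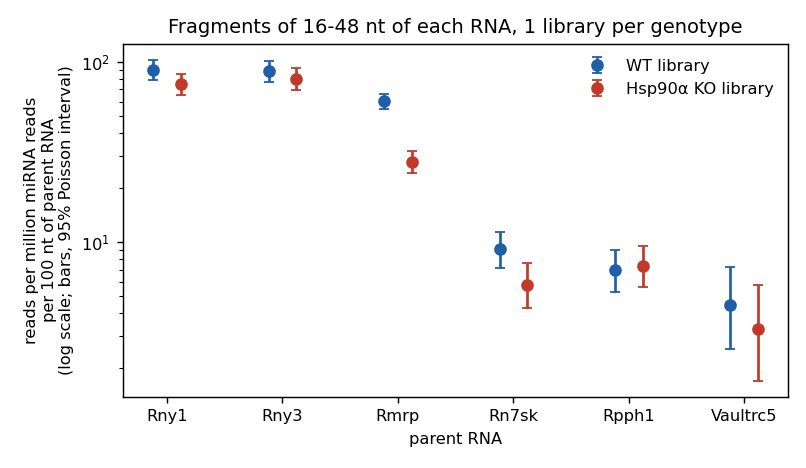
Fragment level of each parent RNA (x axis) in reads per 1000000 miRNA reads per 100 nt of parent (y axis, log scale) in the WT and the Hsp90α KO library, with 95% Poisson intervals for counting error. Rny1, Rny3 and Rmrp lie above Rn7sk, Rpph1 and Vaultrc5 in both libraries, and Rmrp shows the widest gap between the libraries, 60.4 against 27.8.

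Over all matching reads Rmrp had the lowest KO/WT ratio of the 6 RNAs. Among reads that matched no other gene Rn7sk was lower, at 0.109 (0.0123 to 0.457) against 0.455 (0.380 to 0.544) for Rmrp. That Rn7sk value rested on 18 WT reads and 2 KO reads, of which 14 and 1 were 33 to 48 nt long. Rmrp had 419 reads in WT and 196 in KO, a ratio of 0.461 (interval 0.387 to 0.547). Each distinct Rmrp sequence was also counted once, 62 in WT and 50 in KO. Their ratio, set against a total other than the miRNA reads, was 0.952 (0.643 to 1.40). Rn7sk had 76 and 49 reads, a ratio of 0.635 (0.434 to 0.921). Rny1 had 255 and 215 reads, a ratio of 0.830 whose interval of 0.689 to 0.9997 ended just under 1.

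For the remaining 3 RNAs the interval of the ratio to miRNA reads included 1. Rny3 had 227 reads in WT and 210 in KO, a ratio of 0.911 (0.752 to 1.10). Rpph1 had 56 and 60 reads, a ratio of 1.06 (0.721 to 1.55). With structural RNA reads as the total, Rny3 had a ratio of 1.46 (1.20 to 1.77) and Rpph1 one of 1.69 (1.15 to 2.48). Without Gm26202 these ratios were 1.23 (1.02 to 1.49) and 1.43 (0.976 to 2.09). The structural RNA total was not matched to the lengths of the fragments of either RNA. Vaultrc5 had 16 and 12 reads, a ratio of 0.739 (0.319 to 1.66), and at this depth no difference was detectable. Without Rmrp the other 5 RNAs together had 630 and 546 reads, a ratio of 0.854 (0.760 to 0.959).

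Lower KO/WT ratios were common among structural RNAs, which here means rRNA, snRNA, snoRNA, scaRNA, misc_RNA and similar small noncoding genes. Of 103 such genes whose reads over both libraries came to 100 or more, the 6 RNAs included where deep enough, 48.5% had a ratio at least 1.5-fold below 1 and 0% had one at least 1.5-fold above it. The median was 0.667, with quartiles of 0.476 and 0.840, while 237 miRNA hairpins had a median of 0.974. Among the 5 of the 6 RNAs with enough reads, Rmrp and Rn7sk were at least 1.5-fold lower, 2 of 5, close to that background. A ratio lower than that of Rmrp was found for 24 of the 103 genes and one lower than that of Rn7sk for 43. Rny1, Rny3 and Rpph1 stood in the upper part of the distribution, with 75, 86 and 95 genes below them. These ranks were over all lengths and were not matched for fragment length. Among genes deep enough at 24 to 27 nt, 6 of 26 had a ratio below that of Rny1 and 11 of 26 below that of Rny3. At 28 to 32 nt 35 of 45 genes were below Rny1 and 25 of 45 below Rmrp.

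The fragments of Rny1 came from both arms of its terminal stem. Reads that ended within 6 nt of the 3′ end numbered 158 in WT and 146 in KO, or 62.0% (Wilson interval 55.9 to 67.7) and 67.9% (61.4 to 73.8) of its reads. Reads that started within 3 nt of the 5′ end numbered 77 and 57, or 30.2% (24.9 to 36.1) and 26.5% (21.1 to 32.8). The KO/WT ratio was 0.729 (0.508 to 1.04) for the 5′ fragments and 0.910 (0.722 to 1.15) for the 3′ fragments. The quotient of these ratios was 0.801, and its interval of 0.520 to 1.23 included 1, so a difference between the arms was not detectable.

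The 5′ side of the Rny1 3′ fragments was nearly fixed. Starts at position 83 or 84 accounted for 151 WT reads and 138 KO reads, 59.2% and 64.2% of all Rny1 reads. Of the leading sequences, positions 84 to 111 had 26 reads in WT and 25 in KO, and positions 84 to 110 had 25 and 24. The 2 most abundant 3′ fragments thus had nearly equal counts in the libraries.

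The 5′ fragments of Rny1 began at position 1 in 70 WT reads and 54 KO reads, and their 3′ ends were spread. The most frequent end was position 30, with 25 reads in WT and 14 in KO, a ratio of 0.552 with an interval of 0.265 to 1.10. Ends at position 32 had 14 and 13 reads, ends at position 26 had 7 and 9, and ends at position 28 had 8 and 2. In the minimum free energy fold predicted by RNAfold, positions 1 to 30 and 84 to 111, the stretches in capitals above, form 17 base pairs with each other, with 53 bases between them. Reads of Rny1 that were neither 5′ nor 3′ fragments numbered 20 in WT and 12 in KO.

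Rny3 gave almost only 3′ fragments. They numbered 209 in WT and 183 in KO, 92.1% (87.8 to 94.9) and 87.1% (81.9 to 91.0) of its reads, with a KO/WT ratio of 0.862 (0.703 to 1.06). Its 5′ fragments numbered 4 in WT and 10 in KO. Starts at positions 74 to 76 accounted for 186 WT reads and 162 KO reads.

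The leading Rny3 sequences differed by a base at either end. Positions 74 to 99 had 28 reads in WT and 25 in KO, positions 75 to 99 had 32 and 19, and positions 74 to 100 had 28 and 16. The respective ratios were 0.879 (0.492 to 1.56), 0.585 (0.313 to 1.06) and 0.563 (0.284 to 1.08), so each interval included 1. The last 30 bases of Rny1 and Rny3 are identical at 23 positions and the first 30 at 19. The RNAs nonetheless differed in the share of 5′ fragments, 30.2% of WT reads for Rny1 and 1.76% (0.687 to 4.44) for Rny3.

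Most 3′ fragments of the Y RNAs did not hold all 4 T of the annotated transcripts. RefSeq gives Rny1 111 nt and Rny3 101 nt, against 112 and 102 nt in the transcripts used, and the ends of the whole RNAs were not measured. Among the 3′ fragments of Rny1, 9 reads in each library kept all 4 T. Fragments of Rny1 that kept 3 T had 49 reads in WT and 41 in KO, and those that kept 2 T had 40 and 52. Fragments of Rny1 that kept 1 T had 40 and 13 reads, or 25.3% (19.2 to 32.6) of WT and 8.90% (5.28 to 14.6) of KO 3′ fragments, with a KO/WT ratio of 0.320 (0.157 to 0.611).

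In Rny3 the end that kept 1 T was the most frequent in both libraries, with 84 reads in WT (40.2%) and 80 in KO (43.7%). The Rny3 ends that kept 2 T had 44 and 29 reads, and those that kept all 4 T had 9 and 7. Thus the KO library had fewer Rny1 fragments with a single T but a similar count of Rny3 fragments with a single T, the latter at a ratio of 0.938 (0.682 to 1.29). The Rny1 end was singled out after its values were seen, among 12 classes of ends in the 2 genes, and with 1 library per genotype it had no replicate check.

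**Figure D2:**
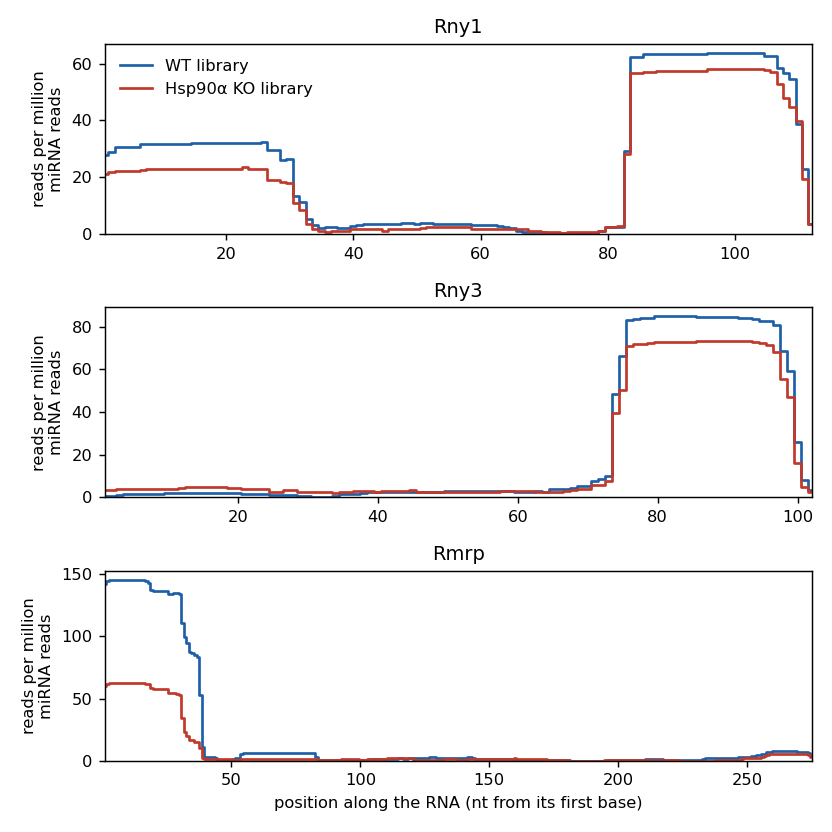
Reads covering each position (y axis, reads per 1000000 miRNA reads) along Rny1, Rny3 and Rmrp (x axis, nt from the first base) in the WT and the Hsp90α KO library. Reads of Rny1 pile up at both ends, those of Rny3 at the 3′ end and those of Rmrp at the 5′ end, and the gap between the libraries is widest over the first 38 positions of Rmrp.

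Fragments of Rmrp were almost all taken from its 5′ end. Reads that began at position 1 numbered 357 in WT and 154 in KO, 85.2% (81.5 to 88.3) and 78.6% (72.3 to 83.7) of its reads. Fragments from the 3′ end had 19 reads in WT and 15 in KO. Rmrp reads with any start other than position 1 had a ratio of 0.667 (0.440 to 1.003), against 0.425 (0.349 to 0.515) for those that began at position 1.

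The fragments that began at position 1 had 2 preferred lengths, and the libraries differed in which was more frequent. At 30 nt there were 58 reads in WT and 47 in KO, and at 31 nt there were 29 and 28. At 37 nt there were 77 reads in WT and 12 in KO, and at 38 nt there were 104 and 22. The 30-nt and 31-nt fragments together had a ratio of 0.849 (0.615 to 1.17), while the 37-nt and 38-nt fragments had a ratio of 0.185 (0.124 to 0.268). Other structural RNAs also had a lower ratio at 37 to 38 nt, 0.256 (0.235 to 0.280), than at 30 to 31 nt, 0.661 (0.623 to 0.702).

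For Rmrp the ratio of the 37 to 38-nt fragments over that of the 30 to 31-nt fragments was 0.218 (exact interval 0.131 to 0.361). These lengths are the peaks of the same reads, so the interval is a description and not a test. Against other structural RNAs the quotient for all Rmrp reads was 1.27 (0.920 to 1.74) at 30 to 31 nt. At 37 to 38 nt it was 0.718 (0.477 to 1.05), so both intervals included 1. The long form thus outnumbered the short one in WT, 181 reads to 87, whereas in KO it was the rarer form, 34 reads to 75. The median length of all Rmrp reads was 37 nt in WT and 30 nt in KO. As the sequences above show, the long forms differ from the 30-nt form by 7 or 8 added bases at the 3′ end.

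**Figure D3:**
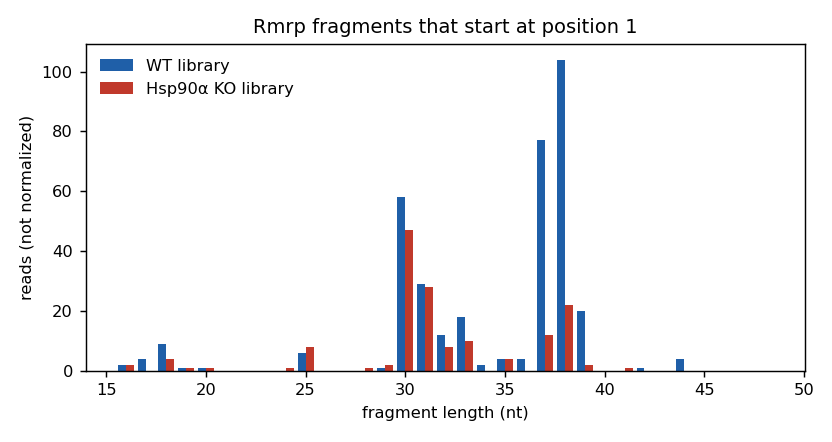
Reads of Rmrp fragments that begin at position 1 (y axis, counts, not normalized) by fragment length (x axis, nt) in the WT and the Hsp90α KO library. The libraries have similar counts at 30 and 31 nt, and the WT peaks at 37 and 38 nt (77 and 104 reads) shrink to 12 and 22 reads in KO.

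The KO/WT ratio of the 6 RNAs together was lowest for the longest fragments, whose interval overlapped that of no shorter class. It was 0.946 (0.677 to 1.32) at 16 to 19 nt, 0.905 (0.672 to 1.22) at 20 to 23 nt, 0.881 (0.744 to 1.04) at 24 to 27 nt and 0.825 (0.692 to 0.984) at 28 to 32 nt. At 33 to 48 nt it was 0.256 (0.197 to 0.330), from 296 WT reads and 77 KO reads. Rmrp supplied 246 and 53 of these reads, a ratio of 0.212 (0.155 to 0.287). Without Rmrp the ratio at 33 to 48 nt was 0.473 (0.278 to 0.784), from 50 and 24 reads.

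Among the other members the longest reads were few. Rn7sk had 19 reads of 33 to 48 nt in WT and 4 in KO, and Rpph1 had 8 and 1. The Y RNAs, whose fragments were mostly shorter, had 10 and 9 such reads for Rny1 and 8 and 9 for Rny3. For these 2 RNAs no difference at 33 to 48 nt was detectable, with intervals of 0.319 to 2.43 and 0.379 to 3.30.

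The lower ratio of long reads was not particular to these RNAs. Over all reads the ratio was 0.379 at 33 to 48 nt and 0.991 at 20 to 23 nt, and for miRNA hairpins it was 0.329 and 1.001. For the other structural RNAs it was 1.08 at 16 to 19 nt, 1.04 at 20 to 23 nt, 0.942 at 24 to 27 nt, 0.769 at 28 to 32 nt and 0.234 (0.226 to 0.241) at 33 to 48 nt. Of 39 structural RNA genes with at least 100 reads of 33 to 48 nt, 94.9% were at least 1.5-fold lower in KO, with a median of 0.309. Rmrp was the only member deep enough to be counted there, and 10 of the 39 genes had a lower ratio. The miRNA reads used for normalization were mostly 20 to 23 nt long, 90.6% in WT and 90.7% in KO, so the normalization does not remove a difference between libraries in the share of long reads.

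Set against other structural RNAs of the same length class, Rmrp did not stand apart at 28 to 32 nt, where the quotient of the ratios was 1.01 (0.766 to 1.34). At 33 to 48 nt the quotient was 0.908 (0.661 to 1.23). One gene, Gm26202, gave 9095 WT reads and 1064 KO reads of the other structural RNAs at 33 to 48 nt. Without it their ratio was 0.327 (0.315 to 0.339), and the quotient for Rmrp became 0.650 (0.472 to 0.879). At 37 to 38 nt, where Gm26202 had 10 and 1 reads, the other structural RNAs had a ratio of 0.256 (0.235 to 0.280) and the quotient for Rmrp was 0.718 (0.477 to 1.05).

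For the 5 other members together the quotient at 33 to 48 nt was 2.02 (1.19 to 3.36), and 1.45 (0.849 to 2.40) without Gm26202. Whether Rmrp or the other members differed from structural RNAs in the 33 to 48-nt class therefore depended on counting that 1 gene. Lengths within the class were not matched: the other structural RNAs had a ratio of 0.575 at 33 nt and 0.113 at 40 nt. At 37 to 38 nt the quotient for Rmrp was 0.718 with Gm26202 and 0.716 (0.476 to 1.05) without it.

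**Figure D4:**
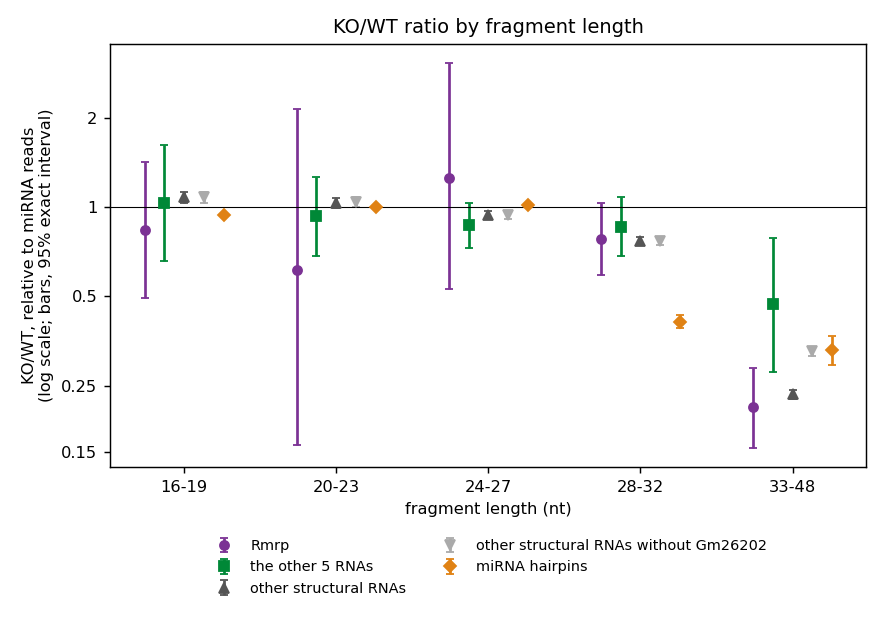
KO/WT ratio relative to miRNA reads (y axis, log scale, bars for exact 95% intervals of counting error) by fragment length class (x axis, nt) for Rmrp, the other 5 RNAs, the other structural RNAs with and without Gm26202, and miRNA hairpins. At 33 to 48 nt each of these sets lies below 1, from 0.212 for Rmrp to 0.473 for the other 5 RNAs.

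The part of each ratio that went along with fragment length was described by giving every WT fragment the KO/WT ratio of the other structural RNAs at its own length. The ratio obtained for the 6 RNAs together was 0.715, against 0.697 measured. For Rmrp it was 0.489 against 0.461 measured, for Rny1 0.816 against 0.830 and for Rny3 0.933 against 0.911. For Rn7sk it was 0.819 against 0.635, for Rpph1 0.895 against 1.06 and for Vaultrc5 0.816 against 0.739. Each of these 6 values lay within the counting interval of the measured ratio. A cause of the difference in length between the libraries was not tested.

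**Figure D5:**
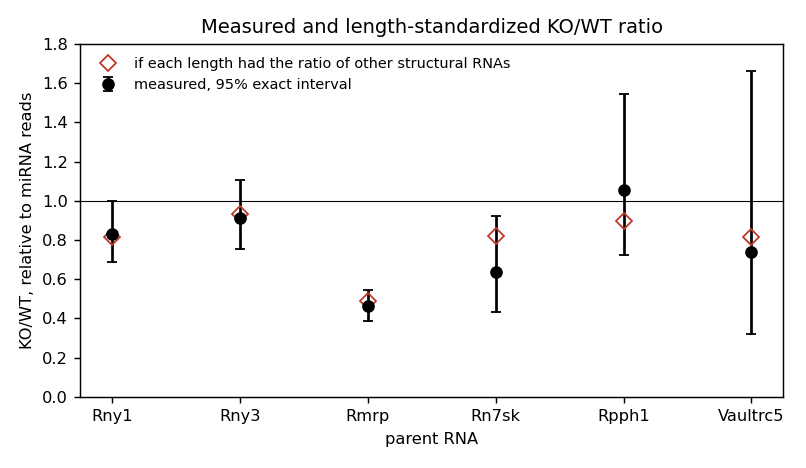
Measured KO/WT ratio of each RNA (filled circles, exact 95% intervals) beside the ratio it would have if each of its fragments had the ratio of other structural RNAs of the same length (open diamonds), both relative to miRNA reads. The diamonds lie inside the interval for all 6 RNAs, at 0.489 against 0.461 for Rmrp.

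Rn7sk and Rpph1 gave scattered fragments. The most frequent start of Rn7sk took 8.80% of its reads and that of Rpph1 took 5.17%, against 83.1% for Rmrp, 40.7% for Rny3 and 33.2% for Rny1. Of 97 distinct Rn7sk sequences, 83 were read once, and of 102 Rpph1 sequences, 92 were read once. Neither RNA had a dominant end: reads from inside the RNA were 81.6% (71.4 to 88.7) of WT and 91.8% (80.8 to 96.8) of KO reads for Rn7sk, and 91.1% (80.7 to 96.1) and 95% (86.3 to 98.3) for Rpph1. Rpph1 had no read from its 5′ end in either library.

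Within Rn7sk the fragment at positions 55 to 76 had 7 reads in WT and 2 in KO. The surrounding stretch, positions 31 to 80, held 23 and 18 reads, a ratio of 0.771 (0.392 to 1.49). Positions 120 to 180 held 13 and 5 reads and positions 280 to 331 held 14 and 5. The next most read fragments, at positions 292 to 331 and 294 to 331, had 4 and 1 and 4 and 0 reads. The stretches were chosen after the coverage was seen, and their ratios are descriptions.

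The 3 leading fragments of Rpph1, at positions 128 to 152, 54 to 74 and 286 to 313, had 2 and 1, 3 and 0, and 3 and 0 reads. No Rpph1 fragment was thus read often enough to compare the libraries. Vaultrc5 had 28 reads in all. Of these, 11 in WT and 9 in KO came from the 3′ end and none from the 5′ end, and its most read fragment, positions 117 to 139, had 1 and 2 reads, while positions 118 to 139 and 78 to 96 each had 1 read in both libraries.

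Not all reads belonged to 1 gene. On the sense strand every read of Rny3 and Vaultrc5 matched no other annotated gene, and the same was true of 94.9% of Rny1 reads and 94.6% of Rmrp reads. On the antisense strand 25 Rmrp sequences with 37 reads also matched Ccdc107, and 1 Rny1 sequence with 3 reads matched Map1b. For Rn7sk this share was 16%, or 20 of 125 reads, because its sequences were also found in 54 other annotated genes. The Rn7sk reads that matched no other gene numbered 18 in WT and 2 in KO, a ratio of 0.109 (0.0123 to 0.457), and 14 and 1 of them were 33 to 48 nt long. For Rpph1 the share was 20.7%, and 89 reads also matched a transcript of Ccnb1ip1. Levels of Rn7sk and Rpph1 are therefore uncertain as to their source.

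Sharing touched the principal fragments of Rmrp little. The 5 Rmrp sequences also found in Hydin held 33 reads, and none was longer than 32 nt, since all 246 and 53 reads of 33 to 48 nt matched no other gene on the sense strand. No sequence was shared between the 6 RNAs. Antisense to the 6 RNAs themselves 1 read was found, a 25-nt read against Vaultrc5 in WT, against 1791 sense reads in both libraries.

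The first base of the fragments was counted because piRNAs, the 24 to 33-nt germline small RNAs, begin mostly with uracil. The share among piRNAs of these libraries is not given here. At 24 to 33 nt uracil stood first in 26.2% (22.9 to 29.9) of the WT reads and 21.3% (18.0 to 24.98) of the KO reads of the 6 RNAs. For Rny1 the share was 35.2% and 36.0%, position 84, a frequent start, being a T, and for Rny3 it was 27.4% and 16.8%. For Rmrp, whose main fragment begins with A, it was 12.6% and 3.33%. The shares were 35% and 21.1% for Rn7sk, 6.67% and 10.5% for Rpph1, and 0% and 50% for Vaultrc5 (4 and 6 reads). A tenth-position adenine was found in 15.3% of the WT and 16.7% of the KO reads of the 6 RNAs. The share was 34.8% and 37.1% for Rny1, 2.15% and 0.621% for Rny3, and 1.32% and 0.833% for Rmrp. For Rn7sk (20 and 19 reads) it was 25% and 36.8%, for Rpph1 (15 and 19 reads) 13.3% and 26.3%, and Vaultrc5 had none.

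Other RNA polymerase III transcripts and related noncoding RNAs, a list of 8 genes, were all detected. Rn7s1 and Rn7s2, copies of the signal recognition particle RNA that share every read, had 209 reads in WT and 138 in KO, a ratio of 0.650 (0.521 to 0.810). Terc, the telomerase RNA, had 78 and 54 reads, a ratio of 0.682 (0.473 to 0.977). For Rn5s, the 5S ribosomal RNA, 5387 and 5731 reads gave a ratio of 1.05 (1.01 to 1.09).

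The spliceosomal RNAs Rnu6, Rnu11 and Rnu12 had ratios of 0.796, 0.923 and 0.682 and Bc1, a brain-enriched RNA, had 9 and 8 reads. None of the 8 genes had a ratio at least 1.5-fold above 1, and only the Rn7s1 and Rn7s2 pair had one at least 1.5-fold below it, from a set of reads held in common. At 33 to 48 nt Rn7s1 had 38 and 8 reads, a ratio of 0.207, and Rn5s had 512 and 165, a ratio of 0.317. For both RNAs the ratio of the long fragments was thus below the ratio over all lengths, as for Rmrp.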

How the data were processed

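Small RNA of 1 WT and 1 Hsp90α KO library of E16.5 testes was analysed. The deposited values are counts: after the authors had removed adaptors, each row gave one sequence, 11 to 48 nt long, with how often it was read, not normalized and without mapping positions. The submitters' processing notes name mm9. Here no genome was used, and sequences of 16 nt or more were searched for, without mismatch, in 141767 GENCODE M21 transcripts (GRCm38), among them 2202 miRNA hairpins. A read outside these transcripts, such as one from an unannotated copy, was not placed. A member sequence was counted once, other sequences at the matching gene with most reads.

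The members and lists were chosen with earlier results of these data known. All 6 genes are named, with the 3 most read sequences of each, and related RNAs come from a list of 8. Sequences were printed from the RNAs' GENCODE transcripts, and those of Vaultrc5 are not reported here. Ratios of counts have exact (Clopper-Pearson) conditional binomial intervals, quotients have exact conditional odds ratio intervals, shares have Wilson intervals and levels have exact Poisson intervals, at 95%, with Python 3.11.15, numpy 2.4.6 and scipy 1.17.1. Structures were predicted with ViennaRNA 2.7.2, and plots drawn with matplotlib 3.10.9. Intervals and counts were tested on simulated data.

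The alternatives were another total, sequences of no other gene, distinct sequences and a minimum of 10 reads or of 20 nt. Others were 1 mismatch, 1 to 3 extra T at the 3′ end and other end tolerances. The other totals were all reads of at least 16 nt or of 20 to 23 nt, structural RNA reads, and miRNA reads without Mir10b. Structural RNA reads were matched by length class only where the ratio was for a length class. For the RNAs together and for each RNA, that total took structural RNA reads of all lengths examined. Leaving out Rmrp, leaving Gm26202 out of the structural RNA reads and the length-standardized ratio were added after the data were seen.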

Additional observations from a re-analysis of the deposited data

How the results depend on the processing

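No paired analysis was possible because each genotype had 1 library, and for the same reason none was left out. Counting error was the only error measured, and Vaultrc5, Rpph1 and Rn7sk had too few reads for small differences to be detectable.

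The ratio over all lengths, 0.697 relative to miRNA reads, became 0.825 with all reads of at least 16 nt as the total, 0.631 for sequences with at least 10 reads and 0.854 without Rmrp. With distinct sequences counted once, 290 in WT and 264 in KO, it passed to the other side of 1. The ratio was then 1.08, with an interval of 0.907 to 1.27 that included 1. The count itself was lower in KO. The total for distinct sequences was not the miRNA reads, so the direction went along with that total. With structural RNA reads of 16 to 48 nt as the total it was 1.11, but without Gm26202 it was 0.943. With structural RNA reads of the same lengths as the total, the ratio was 1.07 at 28 to 32 nt and 1.10 at 33 to 48 nt, and without Gm26202 it was 1.08 and 0.784. With distinct sequences it was 1.24 at 20 to 23 nt, 1.20 at 24 to 27 nt, 1.10 at 28 to 32 nt and 0.580 at 33 to 48 nt. At 33 to 48 nt it was 0.473 without Rmrp. At 16 to 19 nt it was 1.43 for sequences of no other gene and 0.633 for sequences with at least 10 reads. With structural RNA reads as the total, Rny1 passed to 1.33, Rny3 to 1.46, Rn7sk to 1.02, Rmrp to 0.737 and Rpph1 to 1.69. Without Gm26202 Rny1 was 1.12, Rny3 1.23, Rn7sk 0.859, Rmrp 0.623 and Rpph1 1.43, so Rn7sk was above 1 only with that gene counted. The total for each RNA took structural RNA reads of 16 to 48 nt and was not matched to the lengths of its fragments. Of the structural RNA reads, 41.8% in WT and 15.6% in KO were 33 to 48 nt long. With distinct sequences Rny1 was 1.18, Rny3 1.16 and Rmrp 0.952, and Rn7sk was 0.109 for sequences of no other gene. Rmrp stayed below 1 in each of 11 alternatives. The share of 5′ fragments, 37.7% of the reads in both libraries, was 11.3% with distinct sequences. The share of 3′ fragments, 43.3%, was 28.5% with distinct sequences and 32.9% with ends within 1 and 3 nt. Apart from the part of Gm26202, the cause of these changes was not tested. The other 108 values lay within the counting interval of the reported value.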
